A study of Homo sapiens with 9 samples.

Results

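The long intergenic and antisense noncoding RNAs of MDA-MB-231 cells were described after 2 knockdowns of metadherin (MTDH), an adhesion and signalling protein that is often overexpressed in breast tumours. The members were every gene whose symbol in the platform annotation starts with LINC, or ends in -AS1, -AS2, -AS3, -IT1 or -DT, each read from its probe with the highest mean signal. The rule gave 474 genes of the 20046 with a named probe, and they were covered by 567 of the 47231 probes on the array. By name, 253 were long intergenic RNAs (LINC), 180 were antisense RNAs, 8 were intronic transcripts (-IT1) and 33 were divergent transcripts (-DT). RefSeq listed 471 of them by gene ID, 467 as lncRNA and 4 as antisense RNA.

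MDA-MB-231 is an established estrogen receptor-negative breast adenocarcinoma line. One group, the isoform knockdown, was given siRNA against a splice isoform of MTDH, and another, the WT knockdown, siRNA against the wild-type form, each at 200 pmol for 24 h. The third group, the control, was untreated according to the series' design text, so that transfection and loss of MTDH cannot be told apart in either comparison with it. Each of the 3 groups had 3 labelled samples, but the labels do not tell separate cultures from repeats of one culture. The p-values therefore speak of the scatter among these arrays, part or all of which may be technical.

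Long noncoding RNAs are transcripts that are not known to encode a protein. Antisense RNAs are made from the strand opposite a gene, divergent transcripts start close to a gene's promoter and run the other way, intronic transcripts lie inside an intron, and LINC genes lie between protein-coding genes. Some act at the locus that makes them and others elsewhere in the nucleus or the cytoplasm, many are made at low levels, and for most of them no function is known.

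Control replicate 2 was the exact mean of replicates 1 and 3 at 47231 of 47231 probes, so it was left out and 8 arrays were used, 3 of the isoform knockdown, 3 of the WT knockdown and 2 controls. On the 6 knockdown arrays 0 of 47231 signals stood at their own probe ID, and each was returned to its probe through the authors' log2 table, on which every knockdown value given here therefore rests. On the arrays used, 42.97% to 46.07% of all probes were detected. MTDH itself measured 9.87, 9.75 and 9.68 in the isoform knockdown, 9.59, 9.79 and 9.90 in the WT knockdown, and 10.71 and 10.69 in control (normalized log2 signal). Both knockdowns lay below both controls, by -0.93 ± 0.11 for the isoform knockdown and -0.94 ± 0.11 for the WT knockdown (log2 difference ± SE), so that this probe did not separate the 2 forms. Of the markers of the line, 8 of 8 were detected on all 8 arrays. Of 8 luminal breast markers 3 were detected on all 8 arrays and 5, ESR1, PGR, FOXA1, CDH1 and TFF1, on none. Detection on all 8 arrays was also found for 2 of 4 leukocyte, 1 of 4 endothelial and 1 of 5 fibroblast markers, and CD3E, CDH5 and VWF were detected on none.

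Promoter sequence is shown first for the RNAs on which the results turn. The windows are RefSeq's, build GRCh38.p14, and run from 250 bases before to 50 bases after a listed start, 5′ to 3′ on the RNA's own strand. The first 4 start close to a protein-coding gene that runs the other way, and capitals mark the bases between the 2 starts. They are ATP2B1-AS1 (chr12:89708705-89709004, plus strand), whose start lies 117 bases from that of ATP2B1, RPP38-DT (chr10:15097270-15097569, minus strand), 36 bases from RPP38, JARID2-AS1 (chr6:15248647-15248946, minus strand), 159 bases from JARID2, and MRNIP-DT (chr5:179858753-179859052, plus strand), 186 bases from MRNIP.
ATP2B1-AS1: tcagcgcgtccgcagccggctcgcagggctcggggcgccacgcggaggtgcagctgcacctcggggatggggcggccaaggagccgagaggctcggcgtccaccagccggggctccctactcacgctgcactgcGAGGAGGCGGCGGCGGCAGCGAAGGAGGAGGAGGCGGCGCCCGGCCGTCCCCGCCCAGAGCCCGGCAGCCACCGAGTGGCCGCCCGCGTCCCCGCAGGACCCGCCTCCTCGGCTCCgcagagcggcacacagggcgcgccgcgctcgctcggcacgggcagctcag
RPP38-DT: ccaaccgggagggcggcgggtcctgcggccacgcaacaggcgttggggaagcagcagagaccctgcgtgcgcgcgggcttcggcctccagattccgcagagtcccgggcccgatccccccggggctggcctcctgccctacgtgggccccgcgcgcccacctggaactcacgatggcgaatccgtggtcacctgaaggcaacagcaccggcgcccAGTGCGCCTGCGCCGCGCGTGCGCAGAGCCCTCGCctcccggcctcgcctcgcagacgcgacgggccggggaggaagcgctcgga
JARID2-AS1: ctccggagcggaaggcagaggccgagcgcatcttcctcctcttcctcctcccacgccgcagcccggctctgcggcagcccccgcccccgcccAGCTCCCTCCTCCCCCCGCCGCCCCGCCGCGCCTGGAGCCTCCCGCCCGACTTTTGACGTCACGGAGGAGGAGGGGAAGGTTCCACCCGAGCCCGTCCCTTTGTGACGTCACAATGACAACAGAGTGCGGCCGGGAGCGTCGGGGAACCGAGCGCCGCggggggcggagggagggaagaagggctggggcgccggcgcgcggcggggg
MRNIP-DT: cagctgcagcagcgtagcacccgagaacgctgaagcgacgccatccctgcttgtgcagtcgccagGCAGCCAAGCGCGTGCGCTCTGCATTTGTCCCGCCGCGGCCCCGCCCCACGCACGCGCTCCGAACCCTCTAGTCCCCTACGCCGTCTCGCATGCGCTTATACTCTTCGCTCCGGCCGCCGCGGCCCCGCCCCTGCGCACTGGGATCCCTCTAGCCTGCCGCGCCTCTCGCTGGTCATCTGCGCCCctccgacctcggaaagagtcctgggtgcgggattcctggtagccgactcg

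The next windows belong to FOXD2-AS1 (chr1:47434592-47434891, minus strand), which moved in opposite directions in the knockdowns, to TMPO-AS1 (chr12:98516177-98516476, minus strand), which dropped out of detection in the WT knockdown, and to EPB41L4A-AS1 (chr5:112160276-112160575, plus strand), one of the largest risers. Capitals mark the core of the interferon-stimulated response element (GAAA, any 2 bases, GAAA) in FOXD2-AS1, the NF-kB core (GGGA, any 4 bases, CC) in TMPO-AS1, and the transcribed part in EPB41L4A-AS1.
FOXD2-AS1: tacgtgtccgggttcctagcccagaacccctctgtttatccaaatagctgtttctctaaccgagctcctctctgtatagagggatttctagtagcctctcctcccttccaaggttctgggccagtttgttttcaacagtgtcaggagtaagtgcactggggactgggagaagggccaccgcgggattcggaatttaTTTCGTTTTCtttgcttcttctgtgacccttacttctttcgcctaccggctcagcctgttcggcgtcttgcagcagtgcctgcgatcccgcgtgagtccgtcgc
TMPO-AS1: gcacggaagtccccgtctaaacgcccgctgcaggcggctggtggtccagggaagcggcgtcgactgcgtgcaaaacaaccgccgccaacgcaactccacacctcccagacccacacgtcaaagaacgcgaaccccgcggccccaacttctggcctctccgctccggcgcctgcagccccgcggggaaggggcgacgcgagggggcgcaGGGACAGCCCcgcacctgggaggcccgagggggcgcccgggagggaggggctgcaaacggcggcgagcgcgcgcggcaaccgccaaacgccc
EPB41L4A-AS1: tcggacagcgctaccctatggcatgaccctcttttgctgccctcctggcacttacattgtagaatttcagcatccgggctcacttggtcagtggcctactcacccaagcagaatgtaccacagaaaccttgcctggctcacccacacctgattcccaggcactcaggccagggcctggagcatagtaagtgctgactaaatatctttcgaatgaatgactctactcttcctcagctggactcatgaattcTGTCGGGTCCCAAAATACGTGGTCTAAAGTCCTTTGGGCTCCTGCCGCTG

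These letters were searched on both strands, together with the TATA box (TATAAA) and the AP-1 element (TGANTCA), in 35116 RefSeq promoter windows. The FOXD2-AS1 run lies 54 bases before the start and the TMPO-AS1 run 42 bases before it. The interferon element was held by 3.57% of all windows and 3.56% of the 393 windows of members, and the NF-kB core by 25.6% of all windows and 22.4% of members' windows. The TATA box stood in 11.5% of all windows and 11.7% of members' windows, and the AP-1 element in 7.71% of all windows and 8.65% of members' windows. None of the 4 motifs was found in the windows of ATP2B1-AS1, RPP38-DT, MRNIP-DT or EPB41L4A-AS1. Windows of members with a kept probe (defined below) held a median of 18.5 CG pairs, those of the other members 7 and all windows 14. A match describes the letters only.

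Most of these RNAs were at or near the array's background. A member counted as above background in a group when its detection p-value was under 0.05 on every array of that group used. That held for 86 of 474 members (18.1%) in the isoform knockdown, 76 (16%) in the WT knockdown and 88 (18.6%) in control, against 53.5%, 53.1% and 54.6% of all genes with a named probe in the same groups. Over all 8 arrays, 54 members were detected throughout, 196 on 1 to 7 arrays and 224 on none. At the stricter limit of 0.01, 38 were detected throughout and 325 on none. A probe at background passes such a limit on some arrays by its definition, so the 196 include members that may not be expressed, and a member on no array was not detectable here, which is not the same as absent.

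**Figure D1:**
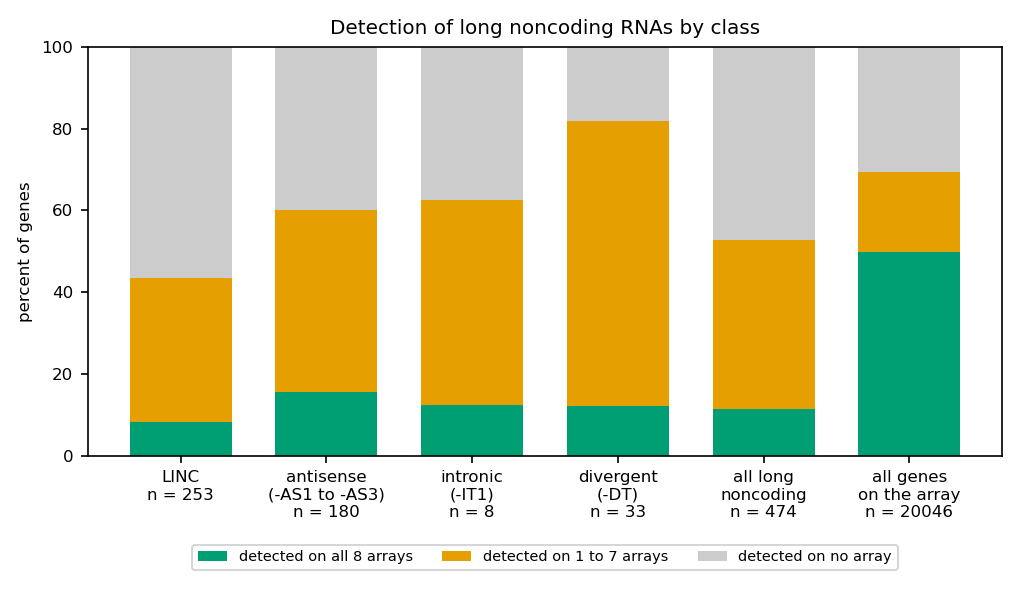
Share of genes (percent, vertical axis) detected on all 8 arrays, on 1 to 7 arrays and on no array at a detection p-value under 0.05, for each class of long noncoding RNA, for all 474 together and for all 20046 genes with a named probe. Detection on no array was found for 56.5% of LINC genes, 40% of antisense RNAs, 37.5% of intronic and 18.2% of divergent transcripts, and for 30.7% of all genes.

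Detection differed by class. Of the 253 LINC genes, 33 were above background in the isoform knockdown, 33 in the WT knockdown and 31 in control. Of the 180 antisense RNAs, 40, 33 and 44 were above background in these groups, and of the 33 divergent transcripts 10, 9 and 11. The number of members detected on an array ran from 129 to 145 in the isoform knockdown, from 122 to 126 in the WT knockdown, and was 144 and 117 on the controls, so the 2 controls spanned nearly the whole range. For tests a probe was kept if it was detected on at least 3 of the 9 deposited columns, which left 164 members (34.6%) and 61.0% of all genes. Kept were 67 LINC genes (26.5%), 73 antisense RNAs (40.6%), 4 intronic (50%) and 20 divergent transcripts (60.6%). A member that was kept only through the group in which it was bright had to differ, so counts over the 164 are also given for the 54 detected on all 8 arrays.

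Against control, 39 of the 164 kept members passed in the isoform knockdown (23.8%), 16 higher and 23 lower, where 40.1% of all kept probes passed, 19.1% higher and 21.0% lower (limma, Benjamini-Hochberg adjusted p under 0.05 over 22467 probes). In the WT knockdown 63 passed (38.4%), 30 higher and 33 lower, against 51.5% of all kept probes, 24.5% higher and 27.0% lower. With the arrays scaled to one median, the WT knockdown had 16 members higher and 39 lower, and all kept probes shifted likewise, with 2849 higher and 7765 lower and a median of -0.19. Among the 54 members detected on all 8 arrays the counts were 26 (48.1%) and 31 (57.4%), near the 50.9% and 60.9% of all probes detected on all 8 arrays. Groups did not overlap for 78 members (47.6%) in the isoform knockdown and 83 (50.6%) in the WT knockdown, against 62.6% and 67.8% of kept probes. The median log2 difference of the kept members was 0.02 in the isoform knockdown and -0.03 in the WT knockdown. That of all kept probes was 0.00 and -0.01. Differences of at least 2-fold were found for 3 members in the isoform knockdown (ATP2B1-AS1, LINC01018 and GPC1-AS1) and 4 in the WT knockdown (ATP2B1-AS1, EPB41L4A-AS1, TMPO-AS1 and GPC1-AS1), where 3.87% and 9.45% of kept probes passed at that size. In these bulk samples a change in the share of cells that make an RNA and a change in its amount per cell cannot be told apart.

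By class, 11 of 67 LINC genes, 22 of 73 antisense RNAs, 2 of 4 intronic and 4 of 20 divergent transcripts passed in the isoform knockdown, and 22, 31, 2 and 8 of them in the WT knockdown. The shares were 16.4%, 30.1%, 50% and 20% in the isoform knockdown, against 40.1% of all kept probes. In the WT knockdown they were 32.8%, 42.5%, 50% and 40%, against 51.5%. Of the antisense RNAs 15 fell and 7 rose in the isoform knockdown, and 20 fell and 11 rose in the WT knockdown. The divergent transcripts had 3 rises and 1 fall in the isoform knockdown and 6 rises and 2 falls in the WT knockdown. Those 6 include MRNIP-DT, RPP38-DT and RB1-DT, which were kept through knockdown arrays alone. Antisense falls include SLCO4A1-AS1 and C2CD4D-AS1, kept through the control columns alone. Of all kept probes 19.1% passed as higher and 21.0% as lower in the isoform knockdown, and 24.5% and 27.0% in the WT knockdown. The knockdowns share their control arrays, so an RNA that passes in both has not been shown by independent comparisons.

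ATP2B1-AS1 changed most. This RNA starts beside ATP2B1, which encodes a plasma membrane pump that exports calcium from the cell. It measured 9.43, 9.76 and 9.72 in the isoform knockdown, 10.57, 10.58 and 10.83 in the WT knockdown, and 8.04 and 7.96 in control (normalized log2 signal, the scale of all values below). The 3 groups were separate, with the WT knockdown highest and control lowest. It rose by 1.63 ± 0.13 in the isoform knockdown (log2 difference ± SE, 3.1-fold, adjusted p = 3.67e-05) and by 2.66 ± 0.13 in the WT knockdown (6.3-fold, adjusted p = 9.78e-07). The rise was smaller in the isoform knockdown than in the WT knockdown, by -1.02 ± 0.11 (adjusted p = 0.000218).

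ATP2B1 itself moved the other way. Its probe measured 6.72, 6.43 and 6.77 in the isoform knockdown, 6.68, 6.98 and 6.66 in the WT knockdown, and 7.77 and 7.66 in control. Every knockdown array was below both controls, and the knockdowns overlapped each other. The pump's mRNA fell by -1.07 ± 0.14 in the isoform knockdown (adjusted p = 0.000369) and by -0.94 ± 0.14 in the WT knockdown (adjusted p = 0.000371), and the 2 did not differ past the threshold (-0.13 ± 0.12, adjusted p = 0.44). The starts of the pair are divided by the bases in capitals in the window shown above, which holds 43 CG pairs.

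EPB41L4A-AS1, the host transcript of the small nucleolar RNA SNORA13, rose in both knockdowns as well. It measured 9.56, 9.44 and 9.54 in the isoform knockdown, 10.48, 10.63 and 10.70 in the WT knockdown, and 8.73 and 8.77 in control. All 3 groups were separate. The rise was 0.77 ± 0.10 in the isoform knockdown (1.7-fold, adjusted p = 0.00038) and 1.85 ± 0.10 in the WT knockdown (3.62-fold, adjusted p = 1.53e-06), and the isoform knockdown was below the WT knockdown by -1.09 ± 0.09 (adjusted p = 3.97e-05). EPB41L4A, a gene of the FERM-domain family on the opposite strand, differed from control by 0.23 ± 0.11 in the isoform knockdown (adjusted p = 0.128) and by -0.10 ± 0.11 in the WT knockdown (adjusted p = 0.499). It was higher in the isoform knockdown than in the WT knockdown by 0.33 ± 0.10 (adjusted p = 0.0317), opposite to EPB41L4A-AS1.

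Others rose to a like extent in both knockdowns. LINC01018, a LINC gene reported mainly from liver, measured 10.69, 11.06 and 10.66 in the isoform knockdown, 10.42, 10.47 and 10.86 in the WT knockdown, and 9.66 and 9.81 in control. The knockdowns overlapped each other and lay above both controls, by 1.06 ± 0.16 (2.09-fold, adjusted p = 0.001) for the isoform knockdown and 0.85 ± 0.16 (1.8-fold, adjusted p = 0.00203) for the WT knockdown. NSUN2, the nearest protein-coding gene, encodes an RNA cytosine methyltransferase. It was 0.06 ± 0.09 from control in the isoform knockdown (adjusted p = 0.651) and rose by 0.42 ± 0.09 in the WT knockdown (adjusted p = 0.00487).

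RAMP2-AS1, antisense to the gene for an accessory protein of the adrenomedullin receptor, measured 12.44, 12.70 and 12.63 in the isoform knockdown, 12.54, 12.50 and 12.85 in the WT knockdown, and 11.73 and 11.73 in control. All knockdown arrays were above the controls. It rose by 0.86 ± 0.13 in the isoform knockdown (adjusted p = 0.000821) and by 0.90 ± 0.13 in the WT knockdown (adjusted p = 0.000331). RAMP2, detected on 1 of the 2 controls, rose by 0.46 ± 0.14 in the isoform knockdown (adjusted p = 0.0247) and differed by 0.32 ± 0.14 in the WT knockdown (adjusted p = 0.0796).

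NFYC-AS1, antisense to the gene for a subunit of the CCAAT-binding factor NF-Y, measured 6.83, 7.01 and 6.98 in the isoform knockdown, 6.87, 6.83 and 6.99 in the WT knockdown, and 6.10 and 5.79 in control. The knockdowns overlapped and stood above both controls, by 0.99 ± 0.12 for the isoform knockdown (adjusted p = 0.000262) and 0.95 ± 0.12 for the WT knockdown (adjusted p = 0.000148). NFYC differed by 0.04 ± 0.13 in the isoform knockdown and by -0.26 ± 0.13 in the WT knockdown, neither past the threshold. The calls of ATP2B1-AS1, EPB41L4A-AS1, LINC01018, RAMP2-AS1 and NFYC-AS1 against control held under every alternative setting run and without each array in turn.

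**Figure D2:**
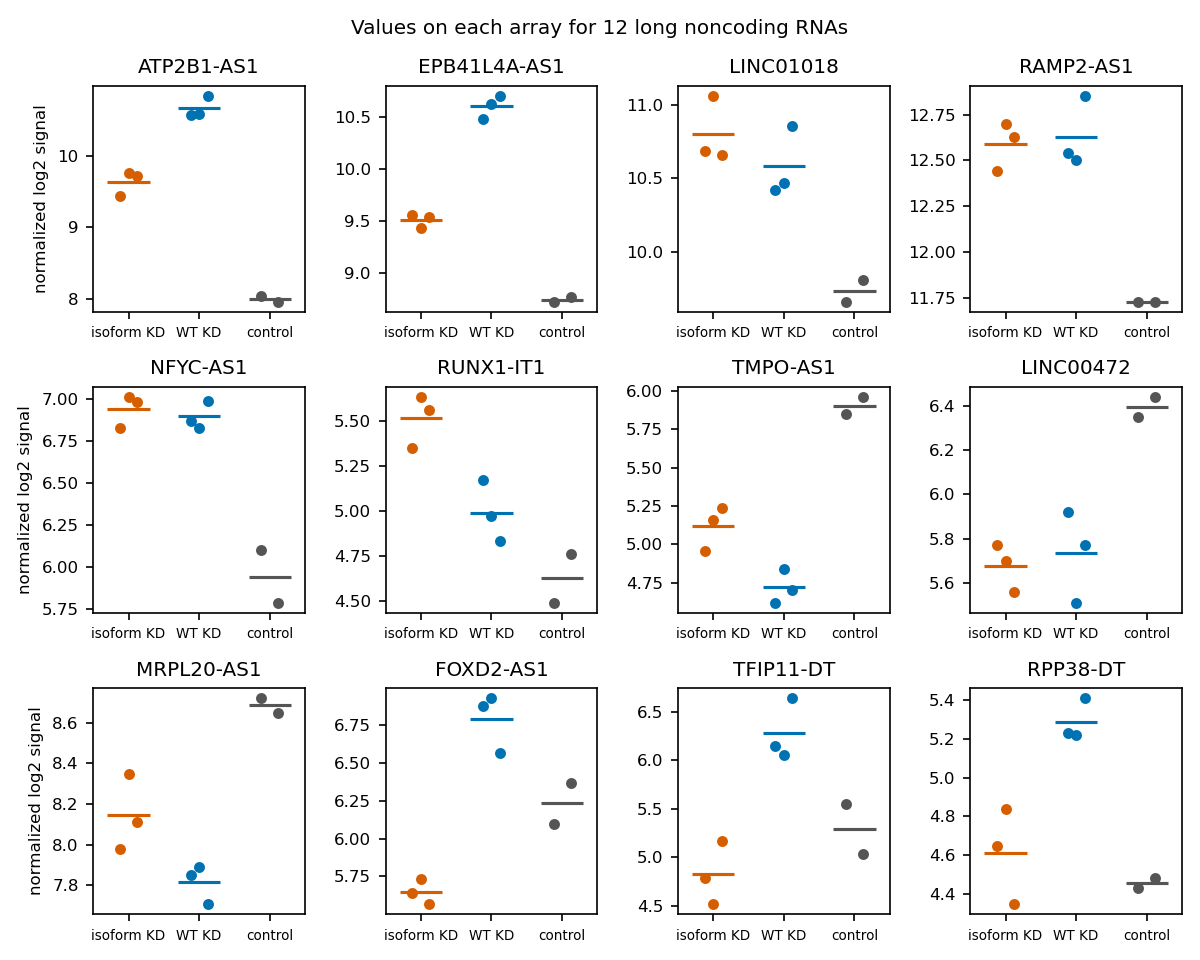
Normalized log2 signal (vertical axes, each with its own range) of 12 long noncoding RNAs on each of the 8 arrays, with the isoform knockdown (orange), the WT knockdown (blue) and control (grey) from left to right; points are arrays and lines are group means. ATP2B1-AS1 and EPB41L4A-AS1 form 3 separate levels, while RAMP2-AS1, LINC01018 and NFYC-AS1 are alike in both knockdowns and above both controls.

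A few RNAs were detected on every knockdown array and on neither control. They were kept through knockdown arrays alone, so their p-values against control lend no support. For them the size of the change has only a lower bound, taken as the mean of the bright group over the lowest signal of a detected probe on each dim array or the dim probe's own signal, whichever was higher. PSMD6-AS2, antisense to the gene for a subunit of the proteasome lid, measured 5.57, 5.41 and 6.01 in the isoform knockdown, 5.57, 5.61 and 5.08 in the WT knockdown, and 4.62 and 4.87 in control. PSMD6-AS2 was at least 1.74-fold higher in the isoform knockdown (adjusted p = 0.0068) and at least 1.47-fold higher in the WT knockdown (adjusted p = 0.021). Without control replicate 1 neither passed, with adjusted p = 0.0594 in the isoform knockdown and 0.136 in the WT knockdown, and the WT call was lost also without WT knockdown replicate 1 (0.0621) or 2 (0.0629). PSMD6 fell by -0.27 ± 0.09 in the isoform knockdown (adjusted p = 0.0411).

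RB1-DT and LINC01364 were likewise detected on all 6 knockdown arrays and on neither control. The same limit holds for their p-values. RB1-DT carries the name of the retinoblastoma gene. It was at least 1.22-fold higher in the isoform knockdown and at least 1.2-fold higher in the WT knockdown (adjusted p = 0.0263 and 0.0252). LINC01364 was at least 1.17-fold higher in the isoform knockdown and at least 1.19-fold higher in the WT knockdown (adjusted p = 0.026 and 0.0161). Neither RNA kept a call in either knockdown without control replicate 3, with adjusted p = 0.188 for RB1-DT in both knockdowns, and 0.221 and 0.16 for LINC01364 in the isoform and WT knockdowns. The isoform knockdown's calls were also lost without isoform knockdown replicate 3 for RB1-DT (0.0725) and replicate 1 for LINC01364 (0.0743). Those of the WT knockdown were lost without WT knockdown replicate 1 or 3 (0.0751 and 0.0596) or with the arrays scaled to one median (0.0543) for RB1-DT, and without replicate 2 for LINC01364 (0.0504).

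Intronic transcripts were among the RNAs that stood higher in the isoform knockdown than in the WT knockdown. RUNX1-IT1 lies inside RUNX1, which encodes a transcription factor known best from blood cells, and measured 5.35, 5.63 and 5.56 in the isoform knockdown, 5.17, 4.97 and 4.83 in the WT knockdown, and 4.49 and 4.76 in control. Every isoform knockdown array was above all others, and RUNX1-IT1 was detected on neither control. RUNX1-IT1 was at least 1.57-fold higher in the isoform knockdown (adjusted p = 0.00103) and exceeded the WT knockdown by 0.52 ± 0.12 (adjusted p = 0.0104). It was kept through knockdown arrays alone, and would not have been without the isoform knockdown, so these p-values lend no support. A second kept probe, detected on the 3 isoform knockdown arrays alone, passed there too (adjusted p = 0.00399). That probe had to differ as well, so it adds no support. In the WT knockdown the brightest probe of RUNX1-IT1 was detected on 2 of 3 arrays. It was at least 1.09-fold higher there than in control (adjusted p = 0.0482). That call was lost without WT knockdown replicate 1 or 2 or isoform knockdown replicate 2 or 3 (adjusted p between 0.0538 and 0.137). It was also lost with the arrays scaled to one median (adjusted p = 0.102). Without control replicate 1 the log2 difference was 0.22. RUNX1 mRNA fell by -0.72 ± 0.11 in the WT knockdown (adjusted p = 0.000561) and differed by -0.30 ± 0.11 in the isoform knockdown (adjusted p = 0.0565).

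ASAP1-IT1 lies inside ASAP1, which encodes a GTPase-activating protein for ARF proteins in the actin cytoskeleton. It measured 6.89, 6.83 and 6.52 in the isoform knockdown, 6.25, 6.41 and 6.41 in the WT knockdown, and 5.80 and 6.00 in control. The groups did not overlap and stood in that order. It rose by 0.85 ± 0.13 in the isoform knockdown (adjusted p = 0.000918) and by 0.46 ± 0.13 in the WT knockdown (adjusted p = 0.0138), the last of which did not pass without control replicate 1 (0.36, adjusted p = 0.107) or with the arrays scaled to one median (0.29, adjusted p = 0.213). It exceeded the WT knockdown by 0.39 ± 0.11 (adjusted p = 0.0283), a call lost without any of the WT knockdown replicates or without isoform knockdown replicate 1 or 2 (adjusted p between 0.0506 and 0.0939). EIF3J-DT, divergent from the gene of an initiation factor subunit, rose by 0.83 ± 0.17 in the isoform knockdown (adjusted p = 0.00494) and by 0.67 ± 0.17 in the WT knockdown (adjusted p = 0.00947, but 0.0715 without control replicate 3). EIF3J mRNA passed in neither, with -0.11 ± 0.12 in the isoform knockdown and 0.30 ± 0.12 in the WT knockdown.

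Among the RNAs that fell, TMPO-AS1 fell most in the WT knockdown. It starts 636 bases downstream of the start of TMPO, the gene of a lamina-associated polypeptide, on the other strand. It measured 4.96, 5.16 and 5.24 in the isoform knockdown, 4.62, 4.84 and 4.70 in the WT knockdown, and 5.85 and 5.96 in control. The 3 groups were separate, and no WT knockdown array detected it. It fell by -0.78 ± 0.11 in the isoform knockdown (adjusted p = 0.000751) and was at least 2.02-fold lower in the WT knockdown (adjusted p = 3.56e-05). Its second kept probe differed by -0.34 ± 0.17 in the isoform knockdown and -0.44 ± 0.17 in the WT knockdown without passing. TMPO mRNA was -0.04 ± 0.12 from control in the isoform knockdown and -0.06 ± 0.12 in the WT knockdown.

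GPC1-AS1 starts 21037 bases downstream of the start of GPC1, the gene of the cell-surface proteoglycan glypican-1, on the other strand. It measured 4.42, 5.02 and 4.36 in the isoform knockdown, 4.99, 4.71 and 4.46 in the WT knockdown, and 6.11 and 5.41 in control. Both controls were above all knockdown arrays, and it was detected on 1 of 3 arrays of each knockdown and on both controls, so the sizes of its falls rest in part on values at background. It fell by -1.16 ± 0.25 in the isoform knockdown (adjusted p = 0.00605) and by -1.04 ± 0.25 in the WT knockdown (adjusted p = 0.00709). GPC1-AS1 could not have been kept without the control columns, so these p-values lend no support. Without control replicate 1, the higher of the 2, the differences were -0.79 (adjusted p = 0.0627) and -0.67 (adjusted p = 0.0792).

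MRPL20-AS1 is antisense to a gene of the mitochondrial ribosome. It measured 7.98, 8.35 and 8.11 in the isoform knockdown, 7.85, 7.89 and 7.71 in the WT knockdown, and 8.72 and 8.65 in control. Both knockdowns were below control, and the WT knockdown was below the isoform knockdown. It fell by -0.54 ± 0.12 in the isoform knockdown (adjusted p = 0.00679) and by -0.87 ± 0.12 in the WT knockdown (adjusted p = 0.000293). The isoform knockdown exceeded the WT knockdown by 0.33 ± 0.11 (adjusted p = 0.041). That call was lost without any of the WT knockdown replicates or without isoform knockdown replicate 2 or 3 (adjusted p between 0.0594 and 0.127). It was also lost without either control, or with the arrays scaled to one median (adjusted p = 0.0835). MRPL20 was 0.00 ± 0.11 from control in the isoform knockdown and fell by -0.57 ± 0.11 in the WT knockdown (adjusted p = 0.00162).

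VPS9D1-AS1, reported elsewhere as a MYC target in colon cancer, measured 5.97, 6.22 and 6.23 in the isoform knockdown, 5.91, 5.98 and 5.92 in the WT knockdown, and 6.96 and 6.58 in control. All knockdown arrays were below the controls, by -0.63 ± 0.13 for the isoform knockdown (adjusted p = 0.00457) and -0.83 ± 0.13 for the WT knockdown (adjusted p = 0.000597). LINC00472, whose level has been reported as higher in less aggressive breast tumours, measured 5.77, 5.70 and 5.56 in the isoform knockdown, 5.92, 5.51 and 5.77 in the WT knockdown, and 6.35 and 6.44 in control. The knockdowns overlapped each other below both controls. The fall was -0.72 ± 0.13 in the isoform knockdown (adjusted p = 0.00221) and -0.66 ± 0.13 in the WT knockdown (adjusted p = 0.00207), and its nearest protein-coding gene, OGFRL1, fell by -0.92 ± 0.10 in the isoform knockdown and by -0.69 ± 0.10 in the WT knockdown (adjusted p = 0.000208 and 0.000466).

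SLCO4A1-AS1 and C2CD4D-AS1 were detected on both controls and on no knockdown array. SLCO4A1-AS1 measured 4.64, 4.51 and 4.51 in the isoform knockdown, 4.58, 4.43 and 4.73 in the WT knockdown, and 5.26 and 5.34 in control. It was at least 1.34-fold lower in the isoform knockdown (adjusted p = 0.000747) and at least 1.33-fold lower in the WT knockdown (adjusted p = 0.00047). Both RNAs passed the filter through the control columns alone, control replicate 2 among them, so they had to differ and these p-values lend no support. SLCO4A1, an organic anion transporter gene, fell as well, by -0.80 ± 0.11 in the isoform knockdown and -0.99 ± 0.11 in the WT knockdown (adjusted p = 0.00051 and 7.2e-05). C2CD4D-AS1 was at least 1.3-fold lower in the isoform knockdown and at least 1.29-fold lower in the WT knockdown (adjusted p = 0.00165 and 0.000605).

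Smaller falls in both knockdowns included AFAP1-AS1, antisense to the gene of an actin filament-associated protein, ATXN1-AS1 and LINC00623. AFAP1-AS1 fell by -0.40 ± 0.13 in the isoform knockdown (adjusted p = 0.0382) and by -0.71 ± 0.13 in the WT knockdown (adjusted p = 0.00165), of which the isoform knockdown's did not pass without either control, without isoform knockdown replicate 2 or 3, or without WT knockdown replicate 2 (adjusted p between 0.0515 and 0.224). ATXN1-AS1 fell by -0.50 ± 0.11 in the isoform knockdown and -0.77 ± 0.11 in the WT knockdown (adjusted p = 0.00511 and 0.000288), and ATXN1 fell further, by -0.70 ± 0.11 and -1.39 ± 0.11 in the same groups. LINC00623 fell by -0.32 ± 0.10 in the isoform knockdown (adjusted p = 0.0242, but between 0.0553 and 0.129 without either control or without isoform knockdown replicate 1 or 3) and by -0.78 ± 0.10 in the WT knockdown (adjusted p = 0.000143). LINC02783 fell by -0.91 ± 0.23 in the isoform knockdown and -0.82 ± 0.23 in the WT knockdown (adjusted p = 0.0112 and 0.0136), and neither passed without control replicate 1 (adjusted p = 0.0599 and 0.065) or without control replicate 3 (adjusted p = 0.0525 and 0.0554).

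**Figure D3:**
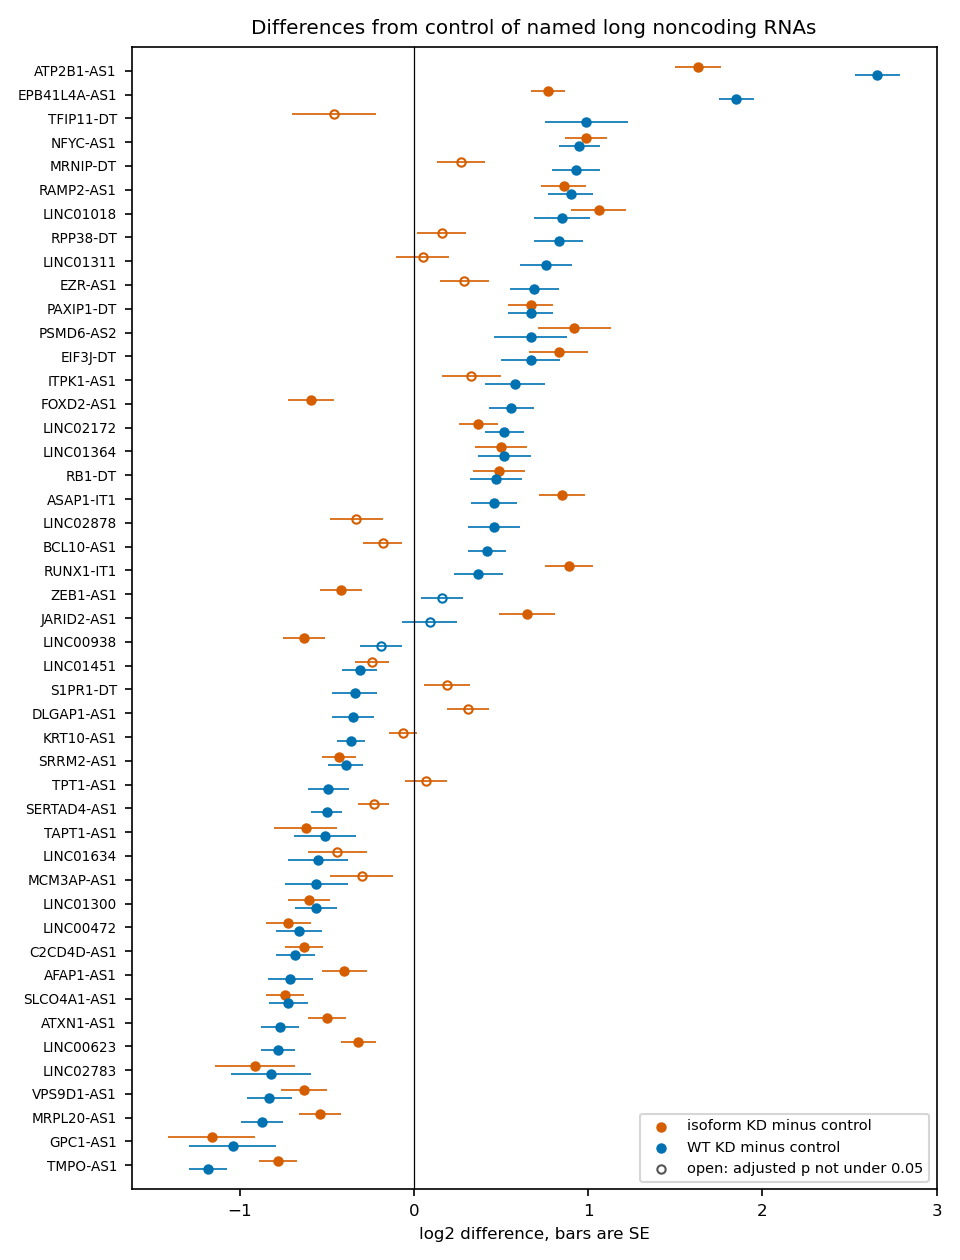
Log2 difference from control (horizontal axis, bars are SE) of the 47 named long noncoding RNAs that passed in at least 1 knockdown, ordered by the WT knockdown, with the isoform knockdown in orange and the WT knockdown in blue; open circles did not pass the adjusted p threshold of 0.05. ATP2B1-AS1 at 1.63 and 2.66 is at the top and TMPO-AS1 is at the bottom, and FOXD2-AS1 is on opposite sides of 0. Fitted differences are drawn also where one group was at background, as for TMPO-AS1 in the WT knockdown, and are no exact sizes there.

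The knockdowns were then set against each other, a comparison that uses no control array. Of the 164 kept members 27 differed (16.5%), 13 higher and 14 lower in the isoform knockdown, where 32.9% of all kept probes passed, 17.3% higher and 15.6% lower. Of the 54 detected on all 8 arrays, 17 differed (31.5%), against 44.3% of such probes. Groups did not overlap for 37 members (22.6%), against 45.4% of kept probes. The median difference was 0.04 for the kept members and 0.02 for all kept probes. At least 2-fold differences were found for 4 members, each lower in the isoform knockdown: TFIP11-DT, FOXD2-AS1, EPB41L4A-AS1 and ATP2B1-AS1. At that size 2.24% of all kept probes passed.

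TFIP11-DT carries the name of TFIP11, whose protein takes part in spliceosome disassembly. It measured 4.78, 4.52 and 5.17 in the isoform knockdown, 6.15, 6.05 and 6.64 in the WT knockdown, and 5.55 and 5.03 in control. The WT knockdown was above every other array, while the isoform knockdown overlapped control and detected it on 1 of 3 arrays. The isoform knockdown was below the WT knockdown by -1.45 ± 0.21 (adjusted p = 0.000867). Against control it differed by -0.46 ± 0.24 in the isoform knockdown (adjusted p = 0.146) and rose by 0.99 ± 0.24 in the WT knockdown (adjusted p = 0.00639), the last not passing without control replicate 3 (0.73, adjusted p = 0.0715).

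FOXD2-AS1, described in several tumour types as raised, lies beside FOXD2, the gene of a forkhead transcription factor. It measured 5.64, 5.73 and 5.57 in the isoform knockdown, 6.88, 6.93 and 6.57 in the WT knockdown, and 6.10 and 6.37 in control. The isoform knockdown was lowest and the WT knockdown highest, with no overlap. The isoform knockdown was below the WT knockdown by -1.15 ± 0.12 (adjusted p = 0.000146). Against control it fell by -0.59 ± 0.13 in the isoform knockdown (adjusted p = 0.00677) and rose by 0.56 ± 0.13 in the WT knockdown (adjusted p = 0.00622). The fall did not pass without control replicate 3 (-0.46, adjusted p = 0.0684), and the rise did not pass without control replicate 1 (0.42, adjusted p = 0.0649) or with the arrays scaled to one median (0.38, adjusted p = 0.0907). FOXD2 mRNA was -0.08 ± 0.12 from control in the isoform knockdown and 0.04 ± 0.12 in the WT knockdown, although the listed starts are only 3403 bases apart.

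Several RNAs passed as higher than control in the WT knockdown and did not pass in the isoform knockdown. MRNIP-DT, divergent from a gene whose protein binds the MRN DNA repair complex, measured 4.83, 4.95 and 5.09 in the isoform knockdown, 5.44, 5.87 and 5.53 in the WT knockdown, and 4.70 and 4.68 in control. The WT knockdown was above all other arrays and neither control detected it. The isoform knockdown arrays also lay above both controls, but their difference from control did not pass. MRNIP-DT was at least 1.68-fold higher in the WT knockdown than in control (adjusted p = 0.000431), and the isoform knockdown was below the WT knockdown by -0.66 ± 0.12 (adjusted p = 0.00315). It could not have been kept without the WT knockdown, so these p-values lend no support. MRNIP itself was not kept.

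RPP38-DT shares its promoter region with RPP38, the gene of an RNase P protein. It measured 4.65, 4.84 and 4.35 in the isoform knockdown, 5.23, 5.22 and 5.41 in the WT knockdown, and 4.43 and 4.48 in control, and was detected on the WT knockdown arrays and no other. It was at least 1.34-fold higher in the WT knockdown than in control (adjusted p = 0.000898), and the isoform knockdown was at least 1.33-fold below the WT knockdown (adjusted p = 0.00306). It was kept through the WT knockdown alone, so it had to differ and these p-values lend no support. RPP38 mRNA did not show that difference. It measured 7.13, 7.36 and 7.12 in the isoform knockdown, 7.31, 7.31 and 7.26 in the WT knockdown, and 6.45 and 6.57 in control, a rise of 0.69 ± 0.10 in the isoform knockdown and 0.78 ± 0.10 in the WT knockdown (adjusted p = 0.00086 and 0.000228).

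LINC01311 measured 4.51, 4.70 and 5.01 in the isoform knockdown, 5.44, 5.58 and 5.35 in the WT knockdown, and 4.59 and 4.80 in control. It was at least 1.51-fold higher in the WT knockdown than in control (adjusted p = 0.00215), and the isoform knockdown was below the WT knockdown by -0.72 ± 0.13 (adjusted p = 0.00314). LINC01311 was detected on neither control and could not have been kept without the WT knockdown, so these p-values lend no support. Its nearest protein-coding gene, SLC25A1, encodes the mitochondrial citrate carrier and rose by 0.54 ± 0.09 in the WT knockdown (adjusted p = 0.000748). It was -0.03 ± 0.09 from control in the isoform knockdown (adjusted p = 0.838), which lay below the WT knockdown by -0.57 ± 0.08 (adjusted p = 0.000678). LINC02878 was also lower in the isoform knockdown than in the WT knockdown, by -0.79 ± 0.13 (adjusted p = 0.00189). BCL10-AS1 and LARP4B-DT were detected on every WT knockdown array and on no isoform knockdown array, in which they were at least 1.18-fold and at least 1.27-fold lower (adjusted p = 0.00175 and 0.00924). BCL10-AS1 was kept through the WT knockdown alone, so its p-value lends no support.

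In the other direction, DLGAP1-AS1 was higher in the isoform knockdown than in the WT knockdown by 0.67 ± 0.11 (adjusted p = 0.00155). It measured 6.34, 6.11 and 6.17 in the isoform knockdown, 5.51, 5.70 and 5.41 in the WT knockdown, and 5.79 and 5.98 in control. Control lay between the knockdowns without overlap. TPT1-AS1, which starts 162 bases from the gene of the translationally controlled tumour protein, measured 5.21, 5.26 and 5.53 in the isoform knockdown, 4.74, 4.88 and 4.70 in the WT knockdown, and 5.23 and 5.30 in control. The WT knockdown alone was low, by -0.49 ± 0.12 against control (adjusted p = 0.00605), and the isoform knockdown exceeded it by 0.56 ± 0.10 (adjusted p = 0.00305). TPT1 mRNA was -0.11 ± 0.10 from control in the isoform knockdown and 0.01 ± 0.10 in the WT knockdown.

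S1PR1-DT was higher in the isoform knockdown than in the WT knockdown by 0.53 ± 0.11 (adjusted p = 0.00635), and LINC00623 by 0.46 ± 0.09 (adjusted p = 0.00323). KRT10-AS1, antisense to the keratin 10 gene, measured 10.32, 10.28 and 10.35 in the isoform knockdown, 10.00, 10.03 and 10.03 in the WT knockdown, and 10.38 and 10.38 in control. The WT knockdown was below all other arrays, by -0.36 ± 0.08 against control (adjusted p = 0.00535), although KRT10 rose by 0.69 ± 0.12 in the isoform knockdown and 0.81 ± 0.12 in the WT knockdown (adjusted p = 0.00205 and 0.000446). The isoform knockdown exceeded the WT knockdown by 0.30 ± 0.07 (adjusted p = 0.0133, but 0.109 with the arrays scaled to one median).

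The 3 members that passed against control in the isoform knockdown and not in the WT knockdown were JARID2-AS1, LINC00938 and ZEB1-AS1, and the knockdowns differed from each other in all 3. JARID2 encodes a partner of the Polycomb repressive complex. JARID2-AS1 measured 5.52, 5.45 and 5.73 in the isoform knockdown, 4.85, 4.84 and 5.33 in the WT knockdown, and 4.82 and 5.01 in control, with the isoform knockdown above all other arrays. It rose by 0.65 ± 0.16 in the isoform knockdown (adjusted p = 0.0106, but 0.0817 without control replicate 1) and exceeded the WT knockdown by 0.55 ± 0.14 (adjusted p = 0.0155, but between 0.0542 and 0.0559 without WT knockdown replicate 1 or 2 or isoform knockdown replicate 3). JARID2 mRNA fell by -0.56 ± 0.08 in the isoform knockdown and -0.66 ± 0.08 in the WT knockdown (adjusted p = 0.000805 and 0.000171).

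LINC00938 measured 6.73, 6.94 and 6.83 in the isoform knockdown, 7.29, 7.28 and 7.24 in the WT knockdown, and 7.65 and 7.27 in control. Values were lowest in the isoform knockdown. It fell by -0.63 ± 0.12 in the isoform knockdown (adjusted p = 0.00336) and lay below the WT knockdown by -0.44 ± 0.11 (adjusted p = 0.0133, but 0.128 with the arrays scaled to one median). The neighbouring ARID2, the gene of a SWI/SNF chromatin remodelling subunit, fell by -0.75 ± 0.16 in the isoform knockdown and -0.44 ± 0.16 in the WT knockdown (adjusted p = 0.0057 and 0.0461).

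ZEB1-AS1 starts 107 bases from ZEB1, which encodes a repressor of epithelial genes in the epithelial-mesenchymal transition. It measured 5.70, 5.76 and 5.71 in the isoform knockdown, 6.31, 6.25 and 6.32 in the WT knockdown, and 5.93 and 6.34 in control. The isoform knockdown was below all other arrays and the WT knockdown overlapped control. The isoform knockdown was below the WT knockdown by -0.57 ± 0.11 (adjusted p = 0.0032). Against control it fell by -0.42 ± 0.12 in the isoform knockdown (adjusted p = 0.0211), which did not pass without control replicate 3 (-0.21, adjusted p = 0.196) or without isoform knockdown replicate 1 or 3 (adjusted p = 0.0513 and 0.0505). The probe of ZEB1 mRNA was detected on both controls and on no knockdown array.

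Of 8 often reported members on the array, TMPO-AS1, FOXD2-AS1 and ZEB1-AS1 are described above. OIP5-AS1, known as Cyrano and linked to the destruction of the microRNA miR-7, measured 9.29, 9.01 and 9.02 in the isoform knockdown, 9.41, 9.05 and 9.05 in the WT knockdown, and 9.19 and 9.20 in control. The groups overlapped, and it passed in no comparison, with -0.09 ± 0.14 in the isoform knockdown (adjusted p = 0.639) and -0.03 ± 0.14 in the WT knockdown (adjusted p = 0.885). OIP5 mRNA fell by -0.86 ± 0.10 and -0.62 ± 0.10 in the same knockdowns (adjusted p = 0.000196 and 0.000543). MCM3AP-AS1, antisense to a gene of mRNA export, differed by -0.30 ± 0.18 in the isoform knockdown (adjusted p = 0.219) and fell by -0.56 ± 0.18 in the WT knockdown (adjusted p = 0.0274, but between 0.0771 and 0.118 without either control or without WT knockdown replicate 1 or 3). LINC00473, a cAMP-responsive RNA, passed in neither, with 0.24 ± 0.12 in the isoform knockdown and 0.21 ± 0.12 in the WT knockdown. LINC00261 and ST7-AS1 were detected on none of the 8 arrays.

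The protein-coding partners were read from the same fit. For 209 of the 221 antisense, intronic and divergent members the gene named in the symbol was on the array, and in 75 pairs both had a kept probe. Of the 150 kept partner genes, 67 passed in the isoform knockdown (44.7%), 88 in the WT knockdown (58.7%) and 51 between the knockdowns (34.0%), against the 40.1%, 51.5% and 32.9% of all kept probes. Both RNA and partner passed in 10 pairs in the isoform knockdown, 7 in the same direction and 3 in opposite directions. In the WT knockdown both passed in 18 pairs, 12 in the same direction and 6 in opposite directions. In the isoform knockdown the noncoding RNA alone passed in 17 pairs, the partner alone in 21 and neither in 27. In the WT knockdown these counts were 18, 24 and 15. The pairs with both include members that had to differ, such as SLCO4A1-AS1. Whether RNA and partner passed together more often than unlinked genes would was not tested. The strand that each probe reads was not checked, since no probe sequence was used here.

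**Figure D4:**
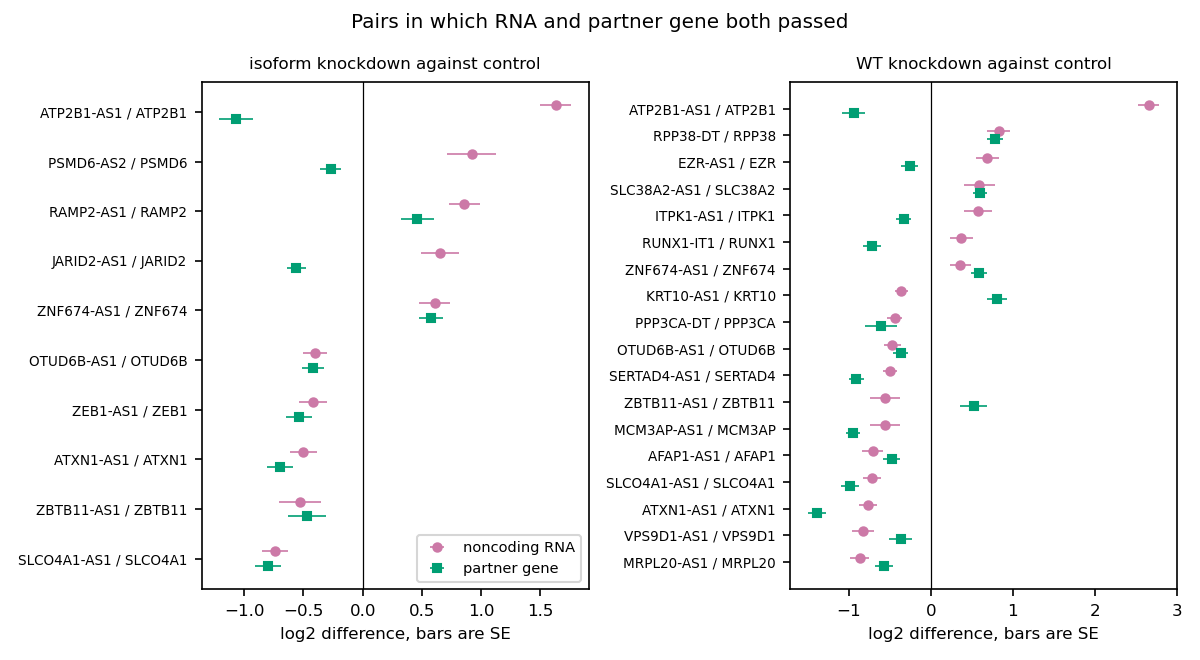
Log2 difference from control (horizontal axes, bars are SE) of noncoding RNAs (pink circles) and their partner genes (green squares) in the 10 pairs of the isoform knockdown (left) and the 18 pairs of the WT knockdown (right) in which both passed. ATP2B1-AS1 and ATP2B1 lie farthest apart in both panels, at 1.63 and -1.07 in the isoform knockdown and at 2.66 and -0.94 in the WT knockdown.

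Pairs in which both passed in the same direction included ZNF674-AS1 with ZNF674 and OTUD6B-AS1 with OTUD6B. In the WT knockdown they also included SLC38A2-AS1 with the amino acid transporter gene SLC38A2. ZNF674-AS1 rose by 0.61 ± 0.13 in the isoform knockdown and 0.36 ± 0.13 in the WT knockdown, and ZNF674 by 0.58 ± 0.10 and 0.59 ± 0.10. SLC38A2-AS1, detected on neither control, was at least 1.24-fold higher in the WT knockdown (adjusted p = 0.0266), and SLC38A2 rose by 0.60 ± 0.09 (adjusted p = 0.000431). Opposite movements in the WT knockdown, besides those of ATP2B1, KRT10 and RUNX1 given above with their limits, were found for EZR-AS1, ITPK1-AS1 and ZBTB11-AS1. ITPK1-AS1 rose by 0.58 ± 0.17 there (adjusted p = 0.0205), while ITPK1 fell by -0.33 ± 0.09 (adjusted p = 0.011). The call of ITPK1-AS1 was lost with the arrays scaled to one median (0.21, adjusted p = 0.374). It was also lost without control replicate 1 (0.54) or 3 (0.61). EZR-AS1 was at least 1.37-fold higher (adjusted p = 0.00237), while EZR, the gene of the membrane-cytoskeleton linker ezrin, fell by -0.26 ± 0.10 (adjusted p = 0.0477). EZR-AS1 and SLC38A2-AS1, detected on neither control, were kept through knockdown arrays alone, so their p-values lend no support. ZBTB11-AS1 fell by -0.56 ± 0.18 while ZBTB11 rose by 0.52 ± 0.16 in the WT knockdown (adjusted p = 0.0231 and 0.0202), and in the isoform knockdown both fell, by -0.53 ± 0.18 and -0.47 ± 0.16 (adjusted p = 0.0369 and 0.0396). By listed starts, 24 kept pairs faced away from each other with starts within 1000 bases, and a gene may have starts that are not listed. They included the opposite pair ATP2B1, the like pairs ZNF674 and SLC38A2, and TPT1-AS1, whose partner did not pass. Directions were not counted over the 24.

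Of the 84 members with more than 1 probe, 12 had more than 1 kept probe. LINC01278 fell with both of its kept probes, by -0.46 ± 0.10 and -0.65 ± 0.13 in the isoform knockdown and by -0.50 ± 0.10 and -0.58 ± 0.13 in the WT knockdown. LINC00339 was lower in the isoform knockdown than in the WT knockdown with all 3 of its kept probes, by -0.35 ± 0.09, -0.55 ± 0.11 and -0.50 ± 0.09 (adjusted p = 0.0199, 0.00374 and 0.00246). Against control in the isoform knockdown its brightest probe did not pass (-0.16 ± 0.11, adjusted p = 0.251). Its other probes fell there by -0.36 ± 0.12 and -0.50 ± 0.10. Not all members showed such accord. The other kept probe of KRT10-AS1, detected on 3 of 8 arrays, did not pass in the WT knockdown (-0.20 ± 0.14, adjusted p = 0.261). Nor did that probe pass between the knockdowns (0.25 ± 0.13, adjusted p = 0.172). PAXIP1-DT did not show accord either. Its brightest probe rose by 0.67 ± 0.13 in both knockdowns (adjusted p = 0.00401 in the isoform and 0.00244 in the WT knockdown), a call lost in both with the arrays scaled to one median (adjusted p = 0.113 and 0.157). Its other kept probe, detected on 4 of 8 arrays, differed by -0.10 ± 0.20 in the isoform knockdown and 0.28 ± 0.20 in the WT knockdown.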

How the data were processed

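Total RNA of 9 samples was labelled as biotin cRNA and hybridised to Illumina BeadChips, per the labels' protocols. For every probe and array the authors deposited a linear intensity with its detection p-value, with no normalization apparent from the values. Their deposited log2 table, which has near-equal quantiles on all arrays, served to match rows and as an alternative. R 3.1.0 is named, with no role, in the submitters' processing notes. The knockdown arrays' rows were matched to probes by setting their signals against the authors' log2 table, which gave 1 probe for each of 47231 rows.

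Signals were corrected by normexp with an offset of 16 and quantile normalized (limma 3.58.1, R 4.3.3). Probes detected at p under 0.05 on at least 3 of 9 columns were kept, and all 22467 were fitted at once with lmFit and eBayes over the 3 groups, with no covariate. The fit had 5 residual degrees of freedom, and the number of arrays limits the precision. The fit alone was also run on simulated independent values with 200 probes changed in the WT knockdown, far fewer than passed here. Normalization, the probe filter and the array's background were not simulated, so that run does not test them.

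The members and lists were chosen with earlier results of these data known. Members named are, in each comparison, the 10 largest rises and 10 largest falls that passed without overlap, those detected on every array of one group and none of another, the 10 brightest in control, and lists of often reported members and of members at SMYD3, GMDS, HDAC4 and AGAP1. ZNF674-AS1, OTUD6B-AS1, SLC38A2-AS1, ZBTB11-AS1, LINC01278 and LINC00339 were chosen after their values were seen and were not recomputed under the alternatives. Alternatives varied background correction, scaling, the probe filter, the detection limit and the arrays used.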

Additional observations from a re-analysis of the deposited data

Results flagged for a closer look

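For 4 long noncoding RNAs the difference between the isoform knockdown and the WT knockdown passed the test of the difference itself and was at least 2-fold (limma, adjusted p under 0.05). TFIP11-DT was lower in the isoform knockdown by -1.45 on the log2 scale, FOXD2-AS1 by -1.15, EPB41L4A-AS1 by -1.09 and ATP2B1-AS1 by -1.02. Control lay between the knockdowns for FOXD2-AS1 and below both for EPB41L4A-AS1 and ATP2B1-AS1, while for TFIP11-DT it overlapped the isoform knockdown. No explanation was tested.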

How the results depend on the processing

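Among 1922 recomputed values of the calls of named members none changed direction, 1742 kept their side of the threshold and 180 lost it. Of 100 calls of named members 56 held under every alternative run and 39 were lost without 1 array. Keeping control replicate 2 raised the members called in the isoform knockdown to 59, and all kept probes called there rose from 9001 to 11557. With probes detected on all 8 arrays, 31 of 54 members were called in the WT knockdown, 2 of them at least 2-fold, and 17 of 54 between the knockdowns. Of all such probes 60.9% and 44.3% were called in these comparisons. The 4 members past 2-fold in the WT knockdown became 2 with an offset of 50, 2 with no background correction, 2 with the authors' log2 values and 7 with median scaling. The 4 between the knockdowns became 1 with an offset of 50, with no background correction and with the authors' log2 values. Median scaling moved the median of all probes to -0.14 in the isoform knockdown, -0.19 in the WT knockdown and 0.08 between them. It called 16 members higher and 39 lower in the WT knockdown, against 30 and 33, as 2849 of all kept probes were higher and 7765 lower, against 5500 and 6076. It called 31 partner genes between the knockdowns, against 51, and 4920 of all kept probes, against 7399. At a detection limit of 0.01, 149 members were above background on at least 1 array, against 250.

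Leaving out each array in turn gave 28 to 42 members called in the isoform knockdown (2 to 5 at least 2-fold, 46 to 67 partner genes), 43 to 61 in the WT knockdown (3 to 6, and 70 to 86) and 21 to 26 between the knockdowns (3 to 4, and 37 to 47). The fewest members called against control came without control replicate 1, as did the fewest of all kept probes. The lone control left was assumed to vary like the other groups. Replicate numbers did not pair the samples, with correlations of same-numbered deviations between -0.028 and 0.058, and the replicate block gave 39, 59 and 25 members called. The alternative of taking rows as deposited was not run, since those rows do not stand at their own probe IDs.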
